A study of Homo sapiens with 6 samples.

Results

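Gene-boundary sites at which both SWI/SNF subunits were detected in both prostate cancer lines are described here. Overlapping peaks of the 4 deposited lists (1 bp sufficed) formed 65315 joined regions on chromosomes 1-22 and X. A region was kept when all 4 lists had a peak in it, when it was narrower than 4000 bp, and when its midpoint lay within 1 kb of the start or end of a protein-coding RefSeq gene. This left 3432 regions, called boundary regions below, out of 14095 narrow regions found in all 4 lists. The other 10663 comprised 6657 inside genes and 4006 between genes. The boundary regions were chosen by these peak calls and widths, so their presence in all 4 lists is a description and not a result.

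The libraries were prepared by ChIP-seq from LNCaP, an androgen-responsive human prostate adenocarcinoma line, and MR49F, an LNCaP-derived line that is resistant to the antiandrogen enzalutamide. The MR49F medium contained 10 µM enzalutamide and the labels name no drug in the LNCaP medium, so an effect of the drug and one of the line cannot be told apart. Both lines were fixed with 2 mM disuccinimidyl glutarate for 45 min and 1% formaldehyde for 10 min, and 4 µg of antibody against BRG1 or SMARCC2 was used. There was 1 library per line and antibody, so differences below lack replicates and carry no p-values. Each line also had an input that was not analysed here.

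SWI/SNF complexes use ATP to slide or evict nucleosomes and so make DNA accessible to transcription factors. BRG1, encoded by SMARCA4, is one of the alternative ATPase subunits, and SMARCC2 (BAF170) is a scaffold subunit around which the complex is built. Promoters of active genes usually hold a nucleosome-depleted stretch just upstream of the transcription start, bordered by positioned nucleosomes. Most housekeeping genes start in CpG islands, stretches rich in G, C and the dinucleotide CG.

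Values for a region are given in the order LNCaP BRG1, LNCaP SMARCC2, MR49F BRG1, MR49F SMARCC2 throughout. The number of fragments at the summit, the highest point of a peak, was recovered as a whole number from the fold enrichment and p-value that the authors' peak caller wrote. An average position of the genome had 3.31, 3.45, 2.62 and 2.39 fragments in the 4 libraries, so raw fragment numbers, printed for each library, are not comparable between the lines. Comparisons between lines use ranks or the number divided by these means. The strength of a region in a list was its highest −log10 q-value, given as a percentile among the 14095 narrow regions of that list, where 100 would be the strongest. A percentile compares a region with others of the same library and says nothing about the absolute amount of BRG1 or SMARCC2. Of the 10 luminal marker genes considered, all 10 had a region of some list inside them or within 1 kb, among them KLK3 and TMPRSS2. Of 5 leukocyte markers 2 did (CD3E and SPI1), as did 3 of 5 fibroblast and endothelial markers and 3 of 3 hepatocyte markers, so a region in or near a gene does not show that the gene is active.

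The promoters of 7 of the genes discussed below show the range of sequence found under boundary regions. Each run is the 250 bases upstream of the gene start, 5′ to 3′ on the gene's strand, from the RefSeq promoter table on GRCh38.p14. Capitals mark matches on either strand to GGGCGG (bound by SP and KLF factors), CCGGAAG (ETS factors) and CACGTG (the E-box of MYC and USF factors). SH3GL3 (chr15:83447091-83447340, plus strand) and BSN (chr3:49554227-49554476, plus) had strong regions in all 4 lists. DSTN (chr20:17569825-17570074, plus), VPS13A (chr9:77177284-77177533, plus) and F2 (chr11:46718963-46719212, plus) ranked higher in MR49F, and F2 was added after its values were seen. ZP1 (chr11:60867292-60867541, plus) and GNPAT (chr1:231240962-231241211, plus) ranked higher in LNCaP.
SH3GL3: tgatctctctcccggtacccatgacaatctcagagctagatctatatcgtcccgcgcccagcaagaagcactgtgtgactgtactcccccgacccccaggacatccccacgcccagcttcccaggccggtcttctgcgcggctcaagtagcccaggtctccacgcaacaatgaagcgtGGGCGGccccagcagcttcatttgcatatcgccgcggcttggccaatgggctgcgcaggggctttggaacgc
BSN: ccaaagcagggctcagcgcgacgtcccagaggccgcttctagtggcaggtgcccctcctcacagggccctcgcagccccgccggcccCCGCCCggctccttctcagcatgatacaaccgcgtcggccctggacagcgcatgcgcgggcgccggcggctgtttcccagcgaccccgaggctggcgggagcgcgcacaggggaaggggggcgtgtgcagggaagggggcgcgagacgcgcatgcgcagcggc
DSTN: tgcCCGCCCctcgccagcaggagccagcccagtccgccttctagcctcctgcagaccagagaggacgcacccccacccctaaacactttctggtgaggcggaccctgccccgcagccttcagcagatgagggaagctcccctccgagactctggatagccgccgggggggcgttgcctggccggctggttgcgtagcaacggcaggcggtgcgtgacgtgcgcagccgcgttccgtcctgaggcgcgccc
VPS13A: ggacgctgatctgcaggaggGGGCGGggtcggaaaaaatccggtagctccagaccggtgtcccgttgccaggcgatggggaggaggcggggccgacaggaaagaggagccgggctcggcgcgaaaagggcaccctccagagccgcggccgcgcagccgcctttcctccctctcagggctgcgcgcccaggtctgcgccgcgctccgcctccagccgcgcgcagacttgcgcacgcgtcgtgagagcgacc
F2: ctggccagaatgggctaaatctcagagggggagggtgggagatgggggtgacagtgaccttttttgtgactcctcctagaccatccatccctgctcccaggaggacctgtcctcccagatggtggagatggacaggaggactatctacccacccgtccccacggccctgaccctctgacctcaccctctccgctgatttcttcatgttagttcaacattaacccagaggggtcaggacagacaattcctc
ZP1: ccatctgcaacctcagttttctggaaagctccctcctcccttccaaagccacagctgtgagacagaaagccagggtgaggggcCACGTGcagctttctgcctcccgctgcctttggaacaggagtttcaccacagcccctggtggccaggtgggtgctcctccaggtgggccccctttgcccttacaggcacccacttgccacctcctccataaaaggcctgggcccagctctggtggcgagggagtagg
GNPAT: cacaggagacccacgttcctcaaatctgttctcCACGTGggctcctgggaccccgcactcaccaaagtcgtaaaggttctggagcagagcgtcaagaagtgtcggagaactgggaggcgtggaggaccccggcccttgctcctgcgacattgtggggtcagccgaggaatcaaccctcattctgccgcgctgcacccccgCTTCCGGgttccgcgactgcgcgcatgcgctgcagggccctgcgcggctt
The 5 genes other than F2 and ZP1 have CpG-rich promoters. Their ratio of observed to expected CG dinucleotides over the 300 bases around the start was 0.829 for SH3GL3, 0.927 for BSN, 0.825 for DSTN, 0.989 for VPS13A and 0.821 for GNPAT. It was 0.244 for F2, the prothrombin gene, and 0.172 for ZP1, which encodes an egg-coat protein.

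Boundary regions were mostly gene starts. The direction of the gene was known for 2773 of the 3432, through a promoter table that covered 15812 of the 19974 protein-coding genes. The nearest boundary was a start for 2600 of them (93.8%) and a gene end for 173. For the other 659, including all 163 on chromosome 8, start and end cannot be told apart. Of the genes of known direction, 18.6% (2939) had a boundary region at the start and 1.46% (231) at the end. The median distance from midpoint to boundary was 380 bp, and 63.6% lay within 500 bp. Boundaries of more than 1 gene fell within 1 kb of 461 boundary regions, and 277 had starts on both strands. A boundary region lay at both boundaries of 59 genes. These include EIF2B5, the catalytic subunit of a translation initiation factor, and ENTPD6, a nucleotide hydrolase, both described below.

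In the full lists, the share of regions at gene boundaries rose with the number of lists that had a peak. Boundaries accounted for 10.5% (Wilson 95% interval 10.1 to 10.9) of narrow regions found in 1 list, 17.0% in 2, 22.8% in 3 and 24.3% (23.6 to 25.1) in all 4. With the 10000 strongest peaks of each list alone, 8.57% of the narrow regions in all 4 lay at boundaries, so the 24.3% depends on the weaker peaks. Seen from the other side, 31.0% (30.1 to 31.9) of the 11070 narrow regions at boundaries were in all 4 lists, against 21.9% of those inside genes and 17.5% of those between genes. The next most frequent pattern at boundaries was both MR49F lists without a LNCaP peak, with 2224 regions. Regions lacking only LNCaP SMARCC2, the shortest list, numbered 1585. A list without a peak may still have had fragments there, below the calling threshold. All intervals cover counting error only.

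At gene starts the summits lay inside the gene, not at the start or upstream of it. In the 2253 boundary regions near the start of a single gene, the median summit was 297, 350, 345 and 349 bp downstream of the start. Only 21.2%, 18.95%, 17.0% and 15.4% of the summits lay upstream. The rule allows midpoints up to 1 kb on either side of the boundary and does not set a side. The boundary is the outer one of the gene, so any other start of that gene lies inside it. The bin from 300 to 400 bp downstream held 15.2%, 15.3%, 17.8% and 19.1% of the summits, while the 100 bp just before the start held 2.35%, 1.95%, 1.42% and 1.95%. The bin from 400 to 300 bp upstream held 2.71%, 2.97%, 2.66% and 2.53%. All 4 summits fell downstream at 1715 of the 2600 start regions (66.0%, 64.1 to 67.8), all 4 upstream at 219 (8.42%), and on both sides at 665. Restricting the genes to those with 1 start in the table gave medians of 285, 331.5, 330.5 and 340 bp over 1864 regions.

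**Figure D1:**
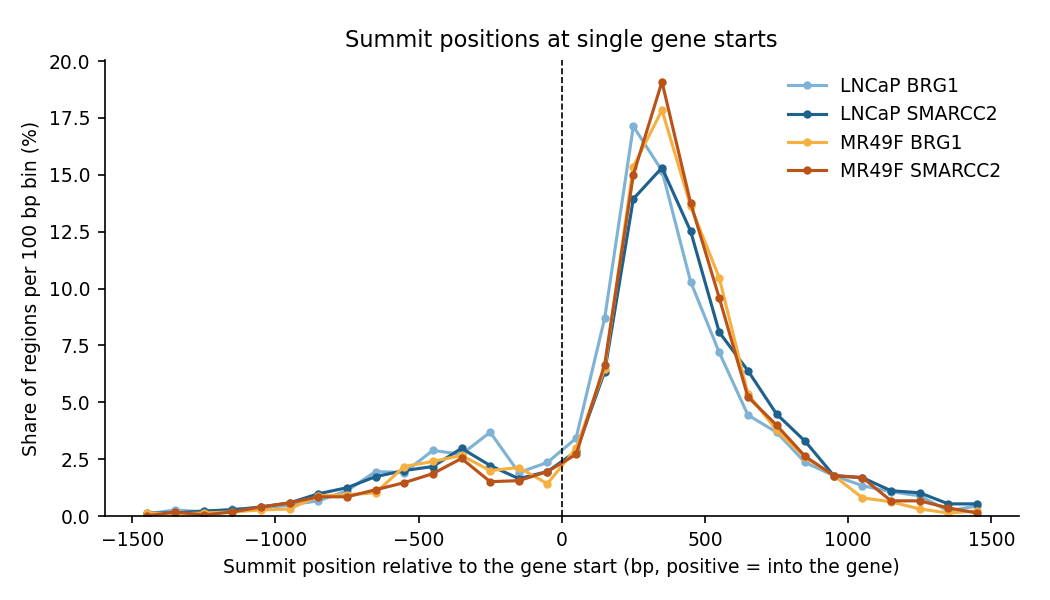
Position of the peak summit relative to the gene start (horizontal axis, bp, positive into the gene) for 2253 boundary regions at the start of 1 gene, as the share of regions per 100 bp bin (vertical axis, %). Each line is 1 library, and in all 4 the main peak lies 200 to 400 bp inside the gene, with a trough around the start.

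Divergent gene pairs gave the same picture from both sides. At 194 boundary regions with 2 starts pointing away from each other, the starts were a median of 156.5 bp apart. The summit fell between the starts at only 6, 3, 7 and 1 of them. It fell in the minus-strand gene at 90, 94, 83 and 89, and in the plus-strand gene at 98, 97, 104 and 104. The gap between the starts is short, and whether the share in it is low for its length was not tested.

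At gene starts, regions of a single list were placed less regularly than those in all 4. Among start regions of a single list the median summit was at -10 bp for LNCaP BRG1, 139.5 bp for LNCaP SMARCC2, 184.5 bp for MR49F BRG1 and 245 bp for MR49F SMARCC2. Upstream summits made up 50.2%, 43.6%, 40.1% and 29.8% of these. The difference was smaller for start regions in 3 lists, with 29.7%, 21.3%, 23.8% and 20.6% upstream. In all 4 lists it was 22.5%, 20.5%, 18.5% and 17.0%. The summits of the 4 lists were nevertheless spread at boundaries. The distance between the outermost of the 4 was a median of 319 bp, against 152 bp for narrow all-list regions elsewhere, and they lay within 200 bp of each other at 29.6% of boundary regions against 57.8% elsewhere. Boundary regions were also wider, with a median of 1748.5 bp against 1598 bp inside genes and 1408.5 bp between genes. At the 135 boundary regions by the end of 1 gene with no start near, summits lay upstream of the gene end, that is inside the gene, in 61.5%, 62.2%, 61.5% and 63.0%.

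Boundary regions were weak among the narrow regions found in all 4 lists, the only regions ranked here. Their median percentile was 38.0, 36.6, 45.9 and 38.7, against 53.1, 53.4, 50.4 and 52.9 inside genes and 58.1, 59.6, 54.9 and 59.3 between genes. Of the boundary regions 2.54%, 1.66%, 2.54% and 1.25% were among the strongest 10% of these narrow regions in a list. A median boundary region had 31, 30, 35 and 33 fragments at its summit, which is 9.35, 8.70, 13.4 and 13.8 times the genome mean. Elsewhere the medians were 33, 33, 36 and 39 fragments. The caller's local background was also somewhat higher at boundaries, 1.88, 1.89, 2.08 and 2.12 times the genome mean against 1.75, 1.70, 1.92 and 1.88 elsewhere. Only 63 boundary regions (1.84%) lay above the 75th percentile in every list, against 9.82% inside genes and 12.3% between genes. The MR49F BRG1 list ranked boundary regions highest of the 4 lists, also when fold enrichment or fragments replaced the q-value.

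**Figure D2:**
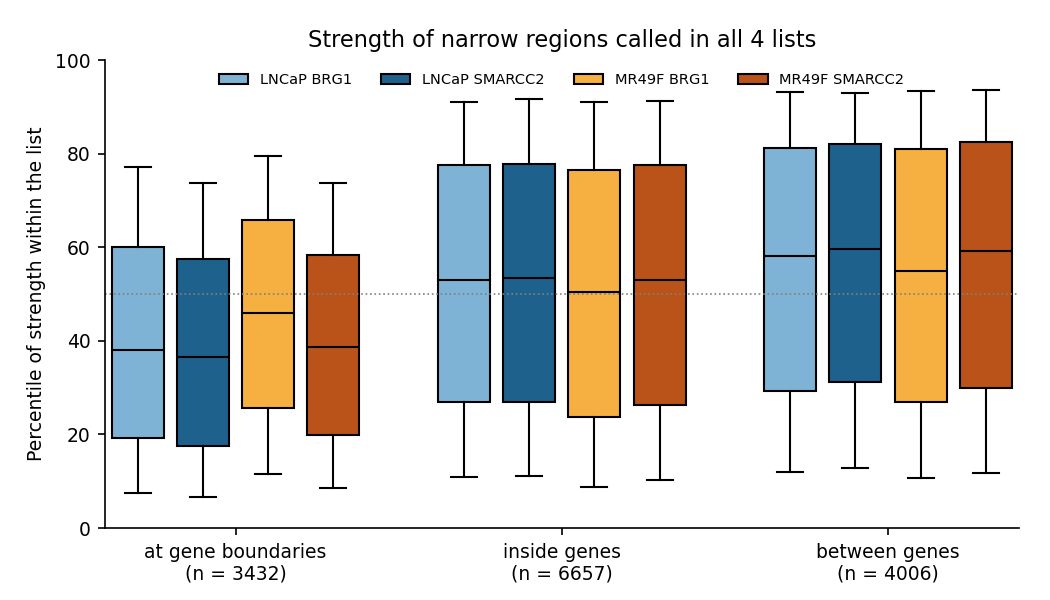
Percentile of strength within each list (vertical axis) for narrow regions found in all 4 lists, by place (horizontal axis) and library (colour). Boxes span the middle 50% with the median line and whiskers reach the 10th and 90th percentiles; the boundary boxes have medians of 36.6 to 45.9 and lie below both other places in every library.

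Gene ends, though few, had higher median percentiles than starts in all 4 lists, by most in the LNCaP lists. The 151 regions at a gene end with no start near had median percentiles of 59.7, 50.1, 48.2 and 46.3, against 37.4, 35.4, 45.2 and 37.4 at starts. The strongest boundary region of all by its lowest percentile was at an end. It lay 559 bp from the end of SH3RF1, which encodes a ubiquitin ligase and JNK scaffold (chr4:169092527-169094873), and had 90, 96, 114 and 141 fragments, all 4 percentiles at 98.4 or above. Ends of ITIH5, a hyaluronan-binding inter-alpha-trypsin inhibitor chain, and MCIDAS, a regulator of multiciliated cells, were also among the 10 strongest. ITIH5 (chr10:7558053-7560549) had 67, 83, 80 and 99 fragments, and MCIDAS (chr5:55217575-55219660) had 76, 100, 76 and 86. At all 3 of these ends SMARCC2 gave more fragments than BRG1 in each line.

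The other strong regions lay at starts or at boundaries of unknown direction. HDAC5, a class IIa histone deacetylase, shares its region with G6PC3 (chr17:44075674-44077928), and 66, 108, 100 and 130 fragments were recovered there. SH3GL3, an endophilin of membrane traffic, had 53, 65, 62 and 99 fragments in a region 1742 bp wide (chr15:83446545-83448286), with summits 195, 47, 163 and 1 bp from the start. BSN, the presynaptic scaffold bassoon (chr3:49553619-49555292), had 73, 74, 71 and 88 fragments with summits 239, 325, 346 and 316 bp inside the gene. CDH26, a cadherin (chr20:59957158-59959946), had 53, 80, 153 and 142 fragments, the highest of the 10 in both MR49F libraries. CPLX1, a complexin of synaptic vesicle release, had 51, 69, 101 and 109, and FAM89A 52, 53, 70 and 85. The region between TNFRSF10B, a TRAIL death receptor, and RHOBTB2 had 64, 109, 85 and 103. Divided by the genome means, MR49F values exceeded those of LNCaP with both antibodies at all 10, as at most boundary regions.

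**Figure D3:**
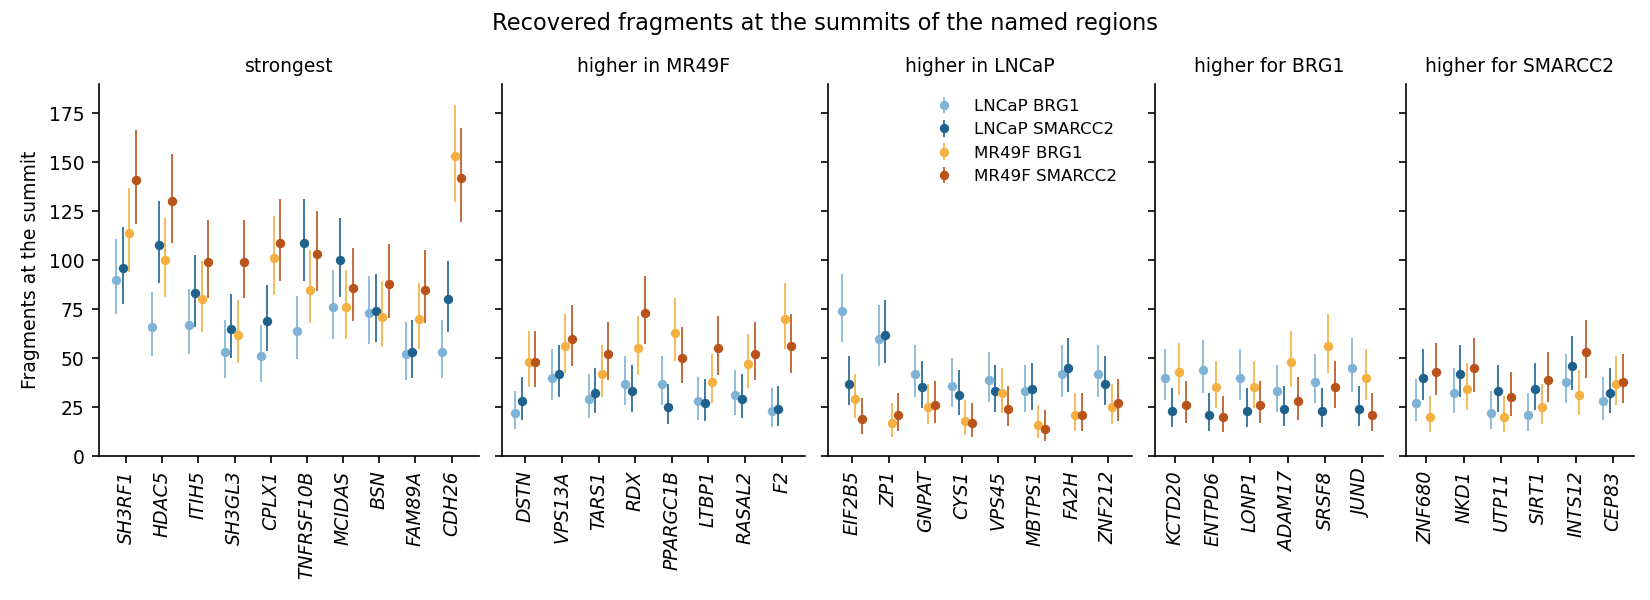
Fragments recovered at the summit (vertical axis) in each of the 4 libraries (colour) for the regions named by rule, in 5 panels. Bars are exact Poisson 95% intervals and cover counting error only; the strongest regions reach 153 fragments and most regions of the other panels stay below 75.

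The limits of the rule cut through similar regions. HIVEP2 (3990 bp wide) and UFSP1 (3976 bp) were just narrow enough, with 32, 41, 53 and 48 and with 63, 43, 76 and 84 fragments. CPEB2 (4000 bp) and LAMA5 (4003 bp) were just too wide, with 33, 36, 38 and 50 and with 39, 31, 59 and 57 fragments. MKRN1 (998 bp from the boundary) was just near enough, with 23, 33, 50 and 33 fragments, and ARID1B and DDX6 (both 1002 bp) just too far. ARID1B, itself a SWI/SNF subunit gene, had 34, 31, 23 and 30 fragments.

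The promoters of these genes were rich in GC and in CpG. Among 13792 promoters at a gene's outer boundary, 2656 belonged to genes with a boundary region at the start. Their median GC content was 68.3%, against 62.7% for all 13792 and 55.3% for the 5295 with no region of any list within 1 kb. The CpG ratio exceeded 0.6 in 91.5%, 66.4% and 33.1%. Members with CpG-poor promoters did not place their summits elsewhere by any large amount. All 4 summits were downstream at 65.9% (63.9 to 67.8) of 2163 start regions with a ratio over 0.6 and at 63.1% (56.2 to 69.4) of the 203 others. CpG-poor starts had the higher median percentile for LNCaP BRG1, 48.1 against 36.2, and 3.45% (1.68 to 6.95) of them were above the 75th percentile in every list, against 0.878% (0.563 to 1.37).

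Motifs of G and C were more frequent in these promoters and motifs rich in A scarcer. The promoter windows reach from 250 bases before to 50 after the start, and so lie upstream of most summits. Among the short motifs searched on both strands, GGGCGG was in 77.5% (75.9 to 79.0) of promoters with a boundary region at the start, in 58.5% of all promoters and in 35.6% of those with no region. The ETS motif CCGGAAG was in 20.1%, 14.6% and 6.74%, the E-box CACGTG in 11.3%, 8.95% and 6.44%, and the YY1 motif ATGGCGG in 10.2%, 7.94% and 3.81%. A-rich motifs were scarcer. TATAAA was in 4.48%, 10.0% and 17.1% and the GATA motif AGATAA in 4.18%, 7.69% and 12.9%. The NRF1 motif GCATGCG was in 7.12%, 5.33% and 3.08%, and the Kaiso motif CTCGCGA in 5.196%, 3.29% and 1.17%. The NFY motif CCAAT was in 33.5%, 37.1% and 37.4%, the TEAD motif GGAATG in 9.49%, 11.6% and 13.99%, the AP-1 motif TGANTCA in 4.07%, 5.78% and 8.78%, and the forkhead motif TGTTTAC in 2.18%, 2.53% and 2.98%. A match is a stretch of letters and not a bound site, and the part of base composition in these shares was not tested. The 137 promoters with regions below the 25th percentile in every list held the ETS motif in 28.5% (21.6 to 36.5) and TGACGTC, the core of CREB sites, in 12.4%, against 5.72% of all with a boundary region.

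Boundary regions were spread unevenly over the genome's genes. In all, 3840 genes had one, which is 19.2% of the 19974 protein-coding genes. Chromosome 3 had the highest share with 27.1% (24.5 to 29.9) of its genes, followed by chromosomes 15 (26.7%), 7 (25.3%) and 8 (25.3%). Chromosome 19 had 7.72% (6.45 to 9.21) and chromosome X 3.66% (2.59 to 5.14). A region of any list was also less frequent on X, at 41.5% of genes against 56.0% on autosomes, but of the genes with any region only 8.81% on X had a boundary region in all 4 lists, against 35.5% on autosomes. On chromosome 19, ZNF genes, which encode the zinc-finger repressors clustered there, had 13 of 250, and other genes 8.24%, whereas ZNF genes elsewhere had 19.1%, the genome's share. None of 392 olfactory receptor genes, which are silent outside the nose and a few other tissues, had one; a count of 0 allows up to 0.765%.

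Of the 18 gene lists examined, ribosomal protein genes stood highest. Of 79 cytosolic ribosomal protein genes, 26 had a boundary region (32.9%, 23.6 to 43.9), the only list whose interval lay above the genome's 19.2%. A region of any list lay near a boundary of 63 of the 79, and of 55.4% of all genes. Of all genes with such a region 34.7% had a boundary region, beside 26 of 63 here and 6 of 12 luminal prostate genes. Whether the list differs from all genes on that base was not tested. Their regions were common rather than strong, with median percentiles of 34.4, 18.8, 26.9 and 17.3 over 27 regions, below the medians of all boundary regions in each list. RPL15 had 40, 49, 36 and 41 fragments, and RPL7A, which it shares with the Mediator gene MED22, 34, 28, 41 and 36. RPS29 had 37, 37, 40 and 41 fragments with summits at 257, 214, 185 and 320 bp inside the gene. RPS25 had 2 regions, one inside the gene with summits at 612, 843, 291 and 427 bp, and one upstream at -568, -800, -579 and -1131 bp.

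Genes of sterol and fatty acid synthesis came second. Of 32, 10 had a boundary region (31.2%, 18 to 48.6), an interval that includes 19.2%. Among them were DHCR7, ELOVL5, IDI1, LSS, SC5D, SCD, SQLE and STARD4, most of them targets of the sterol-regulated factor SREBP. STARD4, a sterol carrier, had 38, 42, 29 and 37 fragments, with each SMARCC2 value above the BRG1 value of the same line. None of the 11 regions of this list was called higher in a line or for an antibody by the rules given below. Of all boundary regions 11.5% were called higher in MR49F, 6.06% in LNCaP, 3.38% for BRG1 and 0.67% for SMARCC2. The absence of calls among 11 regions therefore says little.

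Of the cell type lists, those of other tissues had the fewest boundary regions. The prostate lists had intervals that include 19.2%, as did the leukocyte list (0.935 to 24.6). Of 20 luminal prostate genes 6 had a boundary region (30.0%, 14.5 to 51.9), with KRT8 and KRT18, the luminal keratins, sharing one. ACP3, prostatic acid phosphatase, was the strongest with 81, 87, 60 and 75 fragments, and CDH1, E-cadherin, had 34, 37, 51 and 33. Androgen response genes had 4 of 24 (16.7%): ACSL3, ELL2, HERC3 and PMEPA1. ACSL3, a fatty acid activating enzyme, had 26, 28, 41 and 37 fragments, and PMEPA1, a feedback inhibitor of TGF-beta and androgen signalling, 34, 29, 55 and 44. KLK3 and TMPRSS2, the classical androgen targets, had no boundary region. No region of any list had its midpoint within 1 kb of their boundaries. Each gene had a region of some list inside it or within 1 kb, and whether that region covers a boundary was not examined. Fibroblast and endothelial genes had 0 of 20, hepatocyte and muscle genes 0 of 25 (which allow shares of up to 15% and 12%), and leukocyte genes 1 of 19, CD3E, with 22, 23, 30 and 22. A region of any list lay near a boundary of only 4, 7 and 4 genes of these lists.

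**Figure D4:**
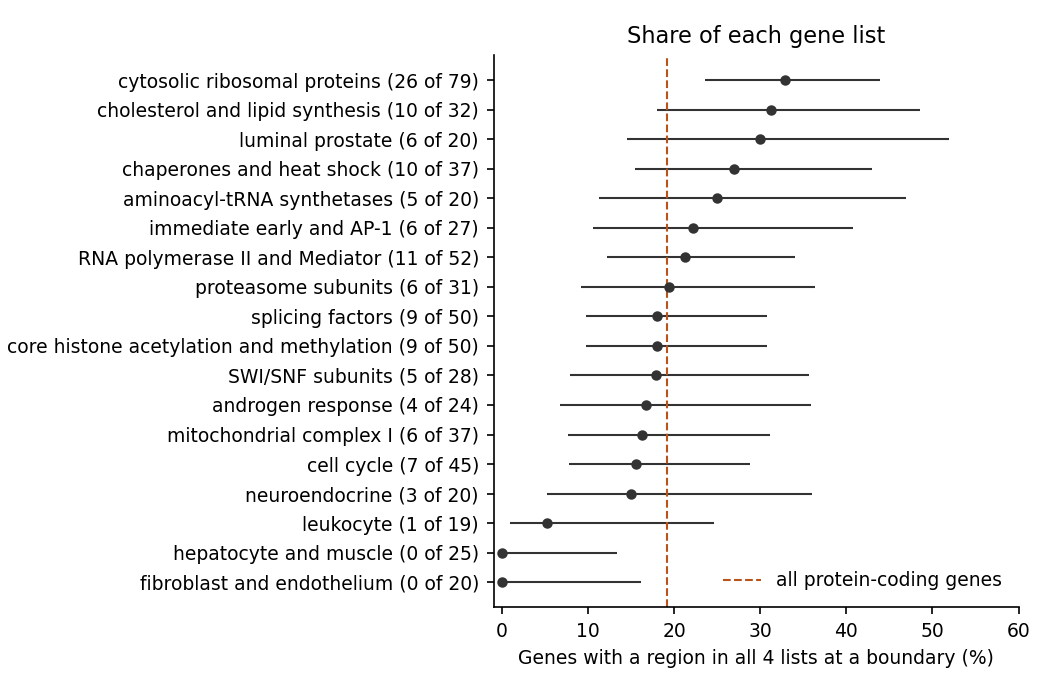
Share of the genes of each list with a boundary region (horizontal axis, %), with Wilson 95% intervals as bars and counts beside the names; the dashed line marks the share of all protein-coding genes, 19.2%. Ribosomal protein genes lie highest at 32.9%, and lists of other cell types lie lowest, 2 of them at 0.

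The remaining lists lay near the genome's share. Chaperones had 10 of 37 (27.0%), tRNA synthetases 5 of 20, immediate early genes 6 of 27, RNA polymerase II and Mediator 11 of 52, proteasome 6 of 31, splicing factors 9 of 50, histone-modifying enzymes 9 of 50, complex I 6 of 37, cell cycle 7 of 45 and neuroendocrine genes 3 of 20. HSF2, a heat shock transcription factor, had 45, 47, 38 and 37 fragments, and PDIA3, a disulfide isomerase of the endoplasmic reticulum, 45, 43, 43 and 42. EGR1, an immediate early transcription factor, had 68, 37, 52 and 33. Its BRG1 summits lay at -1090 and -1047 bp from the start and its SMARCC2 summits at 104 and 196 bp. The counts of the antibodies at EGR1 thus come from different sites. SRF, which drives such genes, had 55, 44, 36 and 37. CDK8, the Mediator kinase, had 43, 43, 53 and 42. The synaptic gene SNAP25 had 39, 37, 56 and 60, and CHGB, a secretory granule protein, 28, 30, 44 and 39. Both lie on chromosome 20 in windows whose background was higher in MR49F, by ratios of 1.38 and 1.43 at SNAP25 and 1.33 and 1.33 at CHGB, and its part was not tested. EZH2, the Polycomb methyltransferase, had 35, 40, 55 and 46. Of the 28 genes of SWI/SNF itself 5 had a boundary region: BCL7B, DPF3, PHF10, SMARCC1 and SMARCD2. PHF10, of the PBAF form, had 26, 25, 32 and 31 fragments and BCL7B 26, 31, 26 and 31.

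Between the lines, a region was called higher when its percentile differed by 25 points or more in the same direction with both antibodies. Of the boundary regions 393 were called higher in MR49F (11.5%, 10.4 to 12.6), where 10.2% of all narrow regions in all lists were, and 9.83% of those away from boundaries. Higher in LNCaP were 208 (6.06%, 5.31 to 6.91), where 9.58% of all and 10.7% of those away were. Boundary regions thus changed rank toward LNCaP less often than other regions. They also started lower in LNCaP. Their median percentiles there were 38.0 and 36.6, against 53.1 and 53.4 inside genes and 58.1 and 59.6 between genes. That leaves less room to fall and more to rise, and its part in the calls was not tested. The difference toward LNCaP held under each alternative tried, all of them percentile rules, whereas the excess toward MR49F did not. With fragments in place of the q-value, 6.29% of boundary regions were called higher in MR49F against 9.05% away, and 4.75% higher in LNCaP against 9.10%. Of the 393 only 112 were also called by fragments, and of the 208 only 68. The percentiles are relative: in fragments over the genome mean, MR49F was above LNCaP at 89.0% of boundary regions with BRG1 and 94.4% with SMARCC2, by medians of 0.53 and 0.69 on the log2 scale (0.45 and 0.73 away from boundaries).

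**Figure D5:**
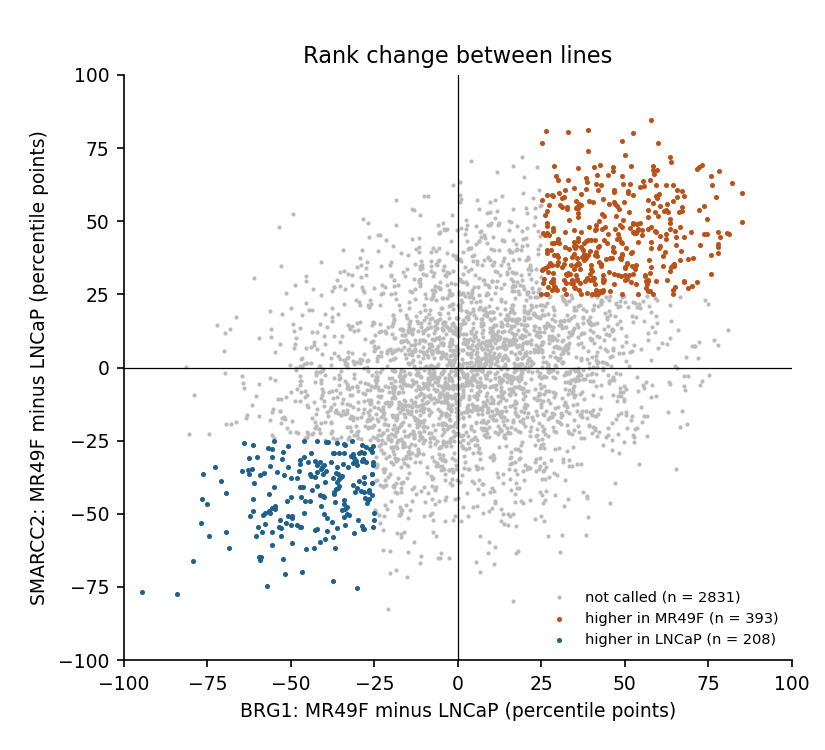
Change in percentile from LNCaP to MR49F with BRG1 (horizontal axis) and with SMARCC2 (vertical axis), each point a boundary region. Coloured points changed by at least 25 points the same way with both antibodies, 393 toward MR49F and 208 toward LNCaP, among 3432.

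Local background moved with these calls. The boundary regions called higher in MR49F had a median background of 2.49 and 2.52 times the genome mean in LNCaP and 1.92 and 1.83 in MR49F. For those called higher in LNCaP it was 1.49 and 1.55 in LNCaP and 2.39 and 2.36 in MR49F. Fragments at the summit, over the genome mean, had medians of 9.05 and 8.41 in LNCaP and 16.8 and 17.96 in MR49F for the former. For the latter they were 10.1 and 9.28 in LNCaP and 10.7 and 11.3 in MR49F, so the medians of these regions were not lower in MR49F on that scale, although their ranks were. The part of background in the calls was not tested. The background over 10 Mb windows, which can follow copy number, had a median MR49F to LNCaP ratio of 1.01 and 1.03 at the former and 0.976 and 1.00 at the latter.

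Among the 8 regions that rose most in rank in MR49F, 4 were also called by fragments. F2 had 23, 24, 70 and 56 fragments on a background of 1.87, 1.89, 2.07 and 2.12 times the mean (chr11:46717821-46719750). These are 6.94, 6.96, 26.8 and 23.4 times the genome mean, with MR49F clear of LNCaP while the background is alike, and the summits are at -842, -873, -879 and -904 bp from the start. DSTN, an actin-depolymerising factor whose region is shared with the lens gene BFSP1, had 22, 28, 48 and 48 (chr20:17568164-17571681). It lies in a window with a background ratio of 1.38 and 1.43 between lines. TARS1, a tRNA synthetase, had 29, 32, 42 and 52, and RASAL2, a Ras GTPase-activating protein, 31, 29, 47 and 52. The other 4 were VPS13A, RDX, PPARGC1B and LTBP1, and were not called by fragments. VPS13A, a lipid transfer protein, had 40, 42, 56 and 60 on a background of 4.66, 4.73, 2.41 and 2.06. RDX, an actin-membrane linker, had 37, 33, 55 and 73, PPARGC1B, a coactivator of mitochondrial genes, 37, 25, 63 and 50, and LTBP1, which binds latent TGF-beta, 28, 27, 38 and 55.

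All 8 regions that fell most in rank were also called by fragments. ZP1 had 60, 62, 17 and 21 fragments on a background of 1.88, 1.58, 1.92 and 1.32 (chr11:60866160-60868552). Over the genome mean these are 18.1, 17.98, 6.50 and 8.77, with LNCaP clear of MR49F, and its summits lay at -58, -595, -229 and -590 bp. EIF2B5 had 74, 37, 29 and 19 at its gene end (chr3:184143760-184146078), highest with LNCaP BRG1. GNPAT, a plasmalogen synthesis enzyme, had 42, 35, 25 and 26, CYS1, a cilium protein, 36, 31, 18 and 17, and ZNF212 42, 37, 25 and 27. VPS45, which regulates vesicle fusion, had 39, 33, 32 and 24. MBTPS1, the protease that activates SREBP, had 33, 34, 16 and 14, and FA2H, a fatty acid hydroxylase, 42, 45, 21 and 21. Both are on chromosome 16, in windows with background ratios of 0.494 and 0.554 (MBTPS1) and 0.661 and 0.671 (FA2H), so fewer copies and less binding cannot be told apart there. Over the genome mean, MR49F was below LNCaP with both antibodies at EIF2B5, ZP1, CYS1, MBTPS1 and FA2H, and with BRG1 but not SMARCC2 at GNPAT and ZNF212. VPS45 had 11.8, 9.57, 12.2 and 10.0 times the mean, so it fell in rank without a lower value in MR49F.

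The promoters of the 2 groups differed in composition. Of 289 promoters with a region higher in MR49F, 84.1% (79.4 to 87.8) held GGGCGG and 14.2% (10.6 to 18.7) the ETS motif. Of 169 with a region higher in LNCaP it was 68.6% (61.3 to 75.2) and 23.7% (17.9 to 30.6). Median GC content was 70.7% and 66.7%. These are 2 of 14 motifs examined in these groups, and the part of GC content was not tested.

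Between the antibodies, a call needed a difference of 25 points in the same direction in both lines. Higher for BRG1 were 116 boundary regions (3.38%, 2.83 to 4.04), where 2.04% of all narrow regions in all lists were and 1.61% of those away from boundaries. Higher for SMARCC2 were 23 (0.67%, 0.447 to 1.00), where 1.88% of all and 2.27% of those away were. Both differences from the other regions kept their direction under each alternative tried. With fragments as strength, 2.94% against 1.28% were higher for BRG1 and 0.495% against 2.11% for SMARCC2, and 58 of the 116 and 9 of the 23 were called by both measures. Background was nearly equal at the 116, with medians of 1.82 and 1.89 in LNCaP and 1.99 and 2.14 in MR49F, while fragments were 35 with BRG1 and 26 with SMARCC2 in LNCaP and 40.5 and 28 in MR49F.

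All 6 regions that most favoured BRG1 were also called by fragments. KCTD20, which shares its region with PXT1, had 40, 23, 43 and 26 fragments (chr6:36442501-36444621). ENTPD6 had 44, 21, 35 and 20 at its gene end, and the region shared by LONP1, a mitochondrial protease, and RPL36 had 40, 23, 35 and 26. ADAM17, which sheds TNF and EGF receptor ligands, had 33, 24, 48 and 28, and SRSF8, a splicing factor, 38, 23, 56 and 35. JUND, an AP-1 subunit, had 45, 24, 40 and 21 at its end (chr19:18279354-18280811). In all 6 the BRG1 count was the higher in each line, each count taken at its own summit. In the LONP1 and RPL36 region the summits lay 259, 868, 1177 and 299 bp from the RPL36 start. The counts of the antibodies there thus come from different sites. Over all boundary regions the summits of the antibodies lay within 200 bp of each other at 58.2% in LNCaP and 69.3% in MR49F.

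Of the 6 regions that most favoured SMARCC2, only 2 were called by fragments. The end of the zinc-finger gene ZNF680 had 27, 40, 20 and 43 (chr7:64497924-64498996), and the start of SIRT1, an NAD-dependent deacetylase, 21, 34, 25 and 39 (chr10:67884704-67886211). NKD1, a Wnt antagonist, had 32, 42, 34 and 45, UTP11, of ribosomal RNA processing, 22, 33, 20 and 30, and INTS12, of the Integrator complex, 38, 46, 31 and 53. CEP83, of the centriole, had 28, 32, 37 and 38, nearly equal between antibodies, on a background of 2.80, 1.33, 4.31 and 2.12.

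The E-box, 1 of 14 motifs examined, was more frequent at starts that favoured BRG1, to an extent that depended on the call. It was in 24 of 93 such promoters (25.8%, 18 to 35.5) and in 10.8% (9.66 to 12.1) of the other 2563. GTF2B, a general transcription factor, MLX, an E-box binding factor, and CHD9, a chromatin remodeller, are among the 24, and were picked after the values were seen. At GTF2B the summits lay at 157, -606, -617 and 180 bp from the start, so the antibodies were compared at different sites. With fragments as strength the share was 11 of 87 (12.6%, 7.21 to 21.2), and with fold enrichment 16 of 67 (23.9%, 15.3 to 35.3). At a difference of 15 points it was 15.7% (11.9 to 20.4), and with 25 points required in a single line 13.7% (LNCaP) or 15% (MR49F).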

How the data were processed

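ChIP-seq peak lists for BRG1 and SMARCC2 in LNCaP and MR49F were used, 1 library each. Per the submitters' processing notes the tools include MACS2 2.1.0, BWA 0.7.10 and SAMtools, with no role given, and the build was hg38. The sources used here do not state filters or how the inputs were used. The deposited fold enrichment (a ratio over local background), −log10 p-value and −log10 q-value of each peak are the authors', called per library. The authors' deposited score, a rounded-down multiple of the −log10 q-value in at least 99.89% of peaks per list, was not used.

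Regions, percentiles and intervals were computed with Python 3.11.15, NumPy 2.4.6, pandas 2.3.3, SciPy 1.17.1 and statsmodels 0.14.6, and plots with matplotlib 3.10.9. Fragments at a summit were solved from fold and p-value with the caller's pseudocount of 1, and all came out whole (100% of peaks, within 0.001 in −log10 p up to 10, in proportion above), after scaling by 0.9708 and 0.9197 in the LNCaP lists. Depth is given only by the genome mean of fragments (2.39 to 3.45 per position). Joining, distances, recovery and calls were tested on simulated data. Peaks outside chromosomes 1-22 and X (0.2%) were left out. Genes, promoters and sequences are RefSeq's on GRCh38.p14; all 616 list entries matched.

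Named regions were the 10 with the highest lowest percentile, the 8 largest changes each way between lines, the 6 each way between antibodies, up to 2 per gene list, and 2 on each side of each limit; some of these are not reported here. The members and lists were chosen with earlier results of these data known. Alternatives covered strength, thresholds, distance, width and overlap.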

Additional observations from a re-analysis of the deposited data

Results flagged for a closer look

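At 28 boundary regions BRG1 ranked at least 25 points above SMARCC2 in LNCaP and at least 25 points below it in MR49F, so the lines went opposite ways (0.816% of boundary regions, 0.993% of all narrow regions in all lists). IFRD1, an interferon-related developmental regulator, had the clearest change, with 42, 26, 34 and 57 fragments and percentiles of 81.1, 22.1, 27.5 and 70.2. At 71 boundary regions the order was the reverse (2.07%, against 0.965% of all), led by ADAMTS7, a secreted metalloproteinase, with 27, 37, 35 and 18 fragments and percentiles of 26.4, 73.3, 57.0 and 10.0. With 1 library per line and antibody neither difference was tested.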

How the results depend on the processing

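No paired analysis was possible because each line and antibody had 1 library, and for the same reason no library could be left out. Fewer boundary regions remained with a −log10 q-value of at least 5 in every list (2014, 21% of narrow regions, 2259 genes). The 10000 strongest peaks of each list left 228 (8.57%, 256 genes). Summits within 200 bp of their median left 1630 (18.3%, 1817 genes), and midpoints within 500 bp left 2183 (15.5%, 2398 genes). Of the regions within 500 bp whose gene direction was known, 94.9% were at starts. Within 2 kb the share of narrow regions was 28.7%. Median percentiles stayed below 50: 37, 35.2, 43.9 and 37 by fold enrichment, 35.9, 32.1, 42.7 and 34.1 at the stricter q-value, and 45.3, 42.2, 48.4 and 39.8 by fragments, a measure chosen after seeing the data.

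Regions called higher in MR49F numbered 190 at the stricter q-value (9.43% against 9.87% away, the order turned) and 236 within 500 bp (10.8% against 10.1%). There were 216 by fragments (6.29% against 9.05%, also turned) and 624 at 15 points (18.2% against 15.9%). In windows with a background ratio of 0.9 to 1.1, also chosen after seeing the data, there were 215 (11.5% against 9.96%). Higher in LNCaP were 122 at the stricter q-value (6.06% against 10.5% away), 136 within 500 bp (6.23% against 10.2%) and 109 at level background (5.84% against 10.5%). At 15 points there were 441 (12.8% against 18.4%) and by fold 341 (9.94% against 13.4%). Higher for BRG1 were 70 within 500 bp (3.21% against 1.83% away) and 368 at 15 points (10.7% against 5.02%). For SMARCC2 these were 11 (0.504% against 2.13%) and 127 (3.7% against 6.48%). In promoters lying wholly inside a boundary region the NFY motif was in 30.6% and the NRF1 motif in 6%. The cause of these shifts was not tested beyond the smaller number of regions under stricter rules. Summits of weak peaks rest on as few as 12 fragments, so differences of a few fragments are within counting error.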

Other observations

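The antibodies also disagreed on the direction between lines at some boundary regions. At 49 the rank was at least 25 points higher in MR49F with BRG1 and at least 25 points lower with SMARCC2 (1.43%, against 0.894% of all narrow regions in all lists), led by SANBR with 18, 24, 29 and 16 fragments. At 37 it was the reverse (1.08%, against 0.951%), led by SC5D, a cholesterol synthesis enzyme, with 49, 20, 29 and 37.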
